A study of Mus musculus with 16 samples.

Results

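Expression of 10 smooth muscle genes was examined in RNA sequencing data of sorted lung cells carrying tdTomato, taken from 16 male mice on a C57BL6 background. The genes were the calponins *Cnn1*, *Cnn2* and *Cnn3*, the transgelins *Tagln* and *Tagln2*, the actin-associated genes *Smtn*, *Cald1*, *Lmod1* and *Synpo2*, and *Myocd*. They were taken by symbol from the deposited tables, where each had 1 row, out of 49452 genes in all. The mice formed 4 groups of 4. *Acta2-tdT* mice carried *Acta2-CreERT2* and *tdTomatoflox*, and *Pdgfra-tdT* mice carried *Pdgfra-CreERT2* and *tdTomatoflox*, so that in each line tamoxifen switches on a lasting red label in cells in which the *Acta2* or the *Pdgfra* promoter drives the recombinase. Mice of each line received saline or bleomycin, an agent used to provoke lung fibrosis, and were 11 weeks old when lungs were taken on day 14. Tamoxifen was given to *Acta2-tdT* mice in food (400 mg/kg) starting 5 days after saline or bleomycin, and to *Pdgfra-tdT* mice as 5 injections of 3 mg at 6 weeks of age. The lines therefore differ in promoter and in the time and route of labeling, and these cannot be told apart. All mice carried the reporter and received tamoxifen, and no group without the recombinase was used here.

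Calponins bind actin filaments and restrain the myosin motor, and CNN1 is the form typical of differentiated smooth muscle, whereas CNN2 and CNN3 are made in many cell types. Transgelin (SM22α), the product of *Tagln*, is an actin-binding protein long used as an early smooth muscle marker, and *Tagln2* encodes a relative found widely outside muscle. Smoothelin (*Smtn*) marks contractile smooth muscle, caldesmon (*Cald1*) binds actin and calmodulin, leiomodin 1 (*Lmod1*) starts new actin filaments, and *Synpo2* encodes an actin-bundling protein of muscle. Myocardin (*Myocd*) is a coactivator of serum response factor (SRF), which binds the CArG box in front of many contractile genes. In the lung, these genes are known from airway and vascular smooth muscle, and several of them from the myofibroblasts of fibrotic tissue.

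In mouse GRCm38, the build of the deposited tables, the calponin genes lie at chr9:22099216-22109630 (*Cnn1*), chr10:79988584-79996062 (*Cnn2*) and chr3:121426497-121458207 (*Cnn3*), all on the plus strand. *Tagln* lies on the minus strand at chr9:45929619-45936058 and *Tagln2* on the plus strand at chr1:172500047-172507380. The other members lie at chr11:3517523-3539292 (*Smtn*, minus strand), chr6:34598500-34775473 (*Cald1*, plus strand), chr1:135324807-135368065 (*Lmod1*, plus strand), chr3:123076519-123236147 (*Synpo2*, minus strand) and chr11:65176561-65269989 (*Myocd*, minus strand). All 10 are annotated as protein coding.

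Promoter sequences from RefSeq (GRCm38.p6) were matched for 8 of the 10 members, in 9 windows of 250 bases ending just before the start site. They were not matched for *Tagln* and *Myocd*. The 3 calponin promoters are shown so that the related genes can be compared in sequence as well as in level, and each is cut where the gene begins in the deposited tables, at base -38 (*Cnn1*), -17 (*Cnn2*) or -45 (*Cnn3*) counted from the RefSeq start site. Capitals mark the CArG box, searched on both strands.
Cnn1, chr9:22099003-22099215, plus strand: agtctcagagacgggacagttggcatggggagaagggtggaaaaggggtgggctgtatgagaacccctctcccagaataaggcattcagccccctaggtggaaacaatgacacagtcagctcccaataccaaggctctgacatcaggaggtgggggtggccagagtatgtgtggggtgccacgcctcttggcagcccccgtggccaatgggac
Cnn2, chr10:79988350-79988583, plus strand: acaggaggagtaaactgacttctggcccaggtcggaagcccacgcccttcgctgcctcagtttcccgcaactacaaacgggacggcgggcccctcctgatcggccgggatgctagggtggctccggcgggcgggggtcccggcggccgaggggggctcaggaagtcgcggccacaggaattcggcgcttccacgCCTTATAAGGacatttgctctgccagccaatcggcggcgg
Cnn3, chr3:121426291-121426496, plus strand: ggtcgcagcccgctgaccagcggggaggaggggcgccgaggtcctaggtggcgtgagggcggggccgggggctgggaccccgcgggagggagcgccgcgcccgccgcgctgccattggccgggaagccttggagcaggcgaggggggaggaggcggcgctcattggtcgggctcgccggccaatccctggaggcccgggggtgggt
The CArG box of *Cnn2*, at -56 to -47, was the only match to this motif in the 9 windows, while 1.47% of all 32851 windows of this length in the table held it. No match says only that these letters are not in the window. The MCAT motif CATTCC, bound by TEAD factors, was found in 4 of the 9 windows, and in 12.6% of all windows. It occurred at 2 places in front of *Tagln2*, at -118 to -113 and -80 to -75, shown here with the motif in capitals, both before the RefSeq start site but inside *Tagln2* as the deposited tables draw it.
Tagln2 first site, chr1:172500116-172500145, plus strand: tcctttacggctCATTCCtgcctactgacc
Tagln2 second site, chr1:172500154-172500183, plus strand: taagcgctccagCATTCCacgcggcggcgc
The other matches to CATTCC or its reverse complement lay in front of *Smtn* (-222 to -217), *Cald1* (-153 to -148 of its first window) and *Lmod1* (-130 to -125). The motifs do not overlap each other, and a match is a description of the sequence only.

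The deposited values are FPKM (fragments mapped to a gene, relative to its transcript length and to all mapped fragments), which carry no counts, so the depth is unknown. They summed over nuclear protein-coding genes to 231058 to 463127 in the *Acta2-tdT* bleomycin mice and to 28512 to 137952 in the other 12. Calls are therefore given as deposited and after scaling each mouse to the same protein-coding sum of 49122.5 (scaled FPKM), and values are as deposited unless they are called scaled. Smooth muscle markers (*Acta2*, *Myh11*, *Actg2* and *Des*) summed to 165 to 4375 FPKM in *Acta2-tdT* mice, where all 4 were at 1 FPKM or more in every mouse, but to 1.52 to 28.9 FPKM in *Pdgfra-tdT* mice. *Pdgfra* itself was at 2.91 to 4.95 scaled FPKM in *Pdgfra-tdT* saline mice, 0.873 to 2.33 scaled FPKM in *Pdgfra-tdT* bleomycin mice, 0.322 to 0.776 scaled FPKM in *Acta2-tdT* saline mice and 0.529 to 1.26 scaled FPKM in *Acta2-tdT* bleomycin mice (2.49 to 11.9 FPKM as deposited). Sums of 10 leukocyte markers were 845 to 1612 FPKM (*Acta2-tdT* saline), 5756 to 9367 FPKM (*Acta2-tdT* bleomycin), 55.5 to 143 FPKM (*Pdgfra-tdT* saline) and 425 to 3651 FPKM (*Pdgfra-tdT* bleomycin), and none of the 10 was at 0 in all mice of a group. *Pdgfra-tdT* saline mouse 3 and *Pdgfra-tdT* bleomycin mouse 5 stood apart by their endothelial genes: 7 markers summed to 366 and 967 FPKM in them and to 4.39 to 106 FPKM in the other 6 mice of the line. These mice also had the highest fibroblast marker sums of the line (56.4 and 160 FPKM against 2.62 to 18.7), the highest protein-coding sums (59840 and 137952 FPKM against 28512 to 49700) and the most genes at 1 FPKM or more (10191 and 10942 against 6994 to 8644). In bulk RNA, more cells of a type and more RNA per cell cannot be told apart. The genes of the odorant and pheromone receptor families, which lung cells are not known to use, had a 95th percentile of 2.36 to 3.90 FPKM in the saline groups and the *Pdgfra-tdT* bleomycin group and of 0.514 to 2.07 FPKM in *Acta2-tdT* bleomycin mice, so levels of that size lie within the range of those genes.

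**Figure D1:**
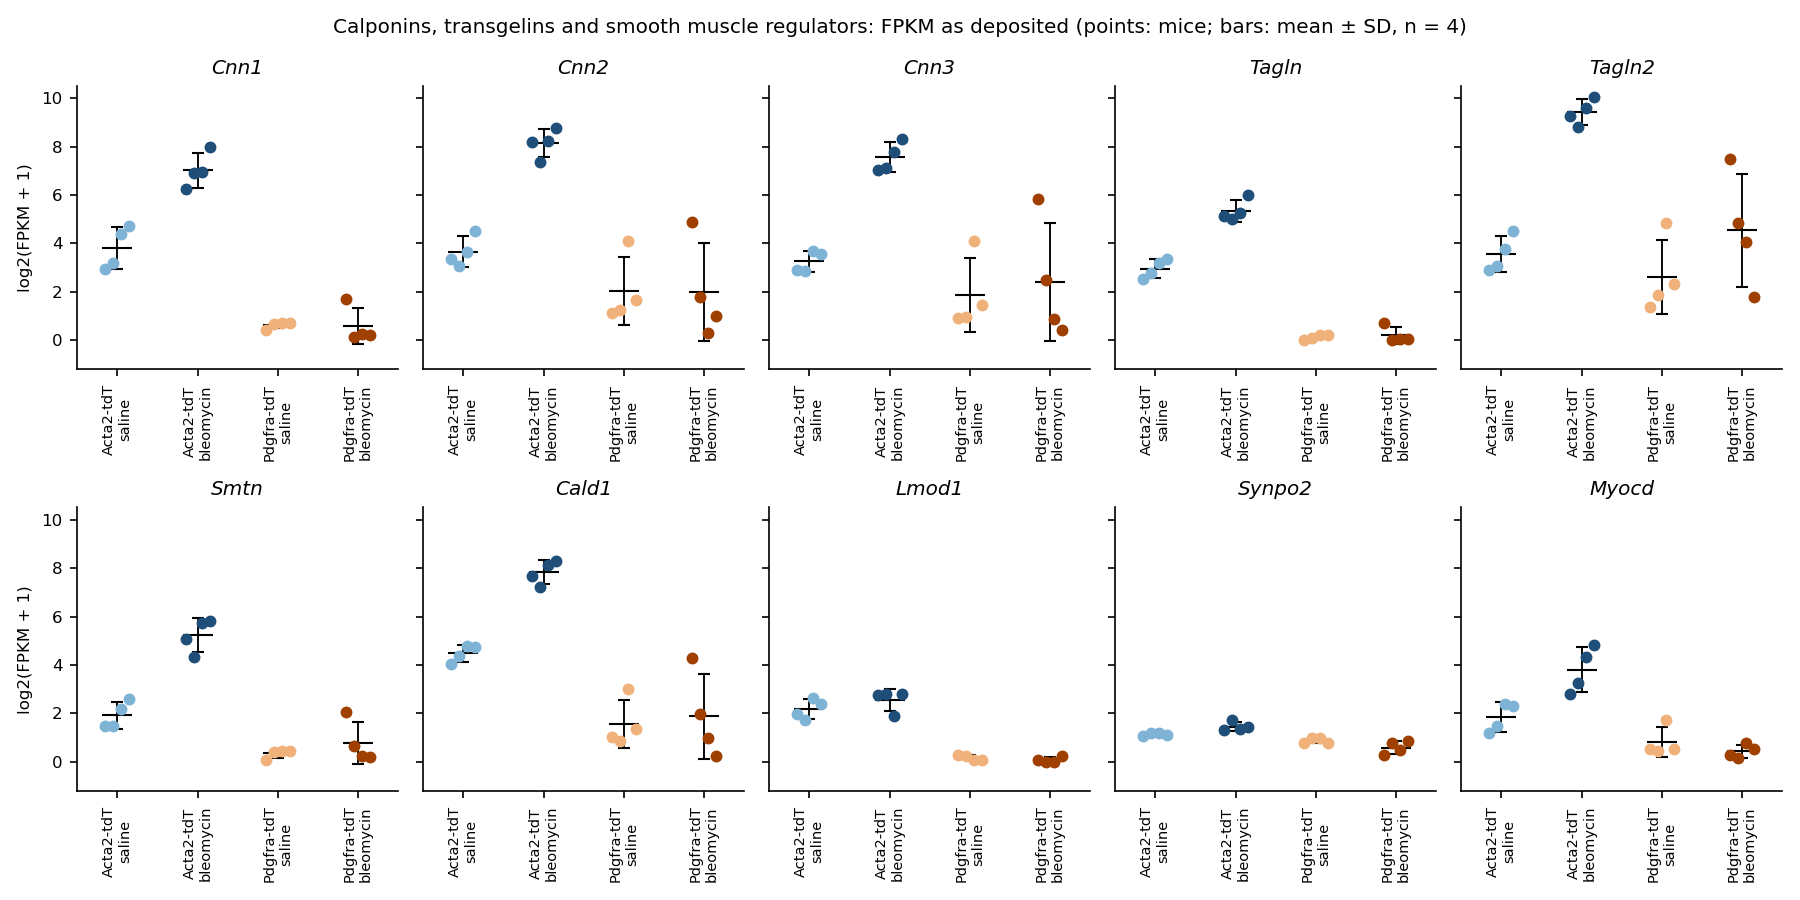
Level of each of the 10 genes as log2(FPKM + 1), on the vertical axis, in the 4 groups along the horizontal axis (points: mice; bars: mean ± SD, n = 4). The *Acta2-tdT* bleomycin mice lie above the *Acta2-tdT* saline mice for every gene except *Lmod1*, and in the *Pdgfra-tdT* groups *Cnn2*, *Cnn3*, *Tagln2* and *Cald1* each have 1 mouse above the others, mouse 3 with saline and mouse 5 with bleomycin.

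The first question was how the genes differ between the lines in mice without fibrosis. With saline, 5 of the 10 genes were higher in *Acta2-tdT* than in *Pdgfra-tdT* cells (limma, adjusted p under 0.05): *Cnn1*, *Tagln*, *Smtn*, *Cald1* and *Lmod1*, by 1.57 to 3.18 on the log2(FPKM + 1) scale. The other 5 genes, *Cnn2*, *Cnn3*, *Tagln2*, *Synpo2* and *Myocd*, did not pass. Among all 8153 genes tested, 2.72% were higher in *Acta2-tdT* cells. After scaling the same 5 genes passed, against 2.88% of 9951 genes. Of the 5, *Cnn1*, *Tagln*, *Smtn* and *Lmod1* reached 1 FPKM in no *Pdgfra-tdT* saline mouse and so could be tested only because they are high in *Acta2-tdT* mice. Without the filter on low values 2 of the 10 were called, *Tagln* (adjusted p = 0.0124) and *Lmod1* (adjusted p = 0.0303), and after scaling 3, with *Cnn1*, against 0.126% and 0.225% of 43598 genes.

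*Cnn1* was at 6.64, 8.19, 20.2 and 25.4 FPKM in *Acta2-tdT* saline mice 1 to 4 and at 0.343, 0.6, 0.627 and 0.656 FPKM in *Pdgfra-tdT* saline mice 1 to 4. The groups lay far apart, and the difference was 3.18 ± 0.44 (log2, SE; adjusted p = 0.00965; exact permutation p = 0.0286, the smallest that 4 against 4 mice can give). *Tagln* was at 4.71, 5.8, 8.07 and 9.3 FPKM against 0.022, 0.079, 0.149 and 0.176 FPKM. Its groups did not overlap, with a difference of 2.81 ± 0.24 (adjusted p = 0.00157). The leiomodin gene *Lmod1* was at 2.91, 2.34, 5.16 and 4.26 FPKM against 0.229, 0.166, 0.0538 and 0.0661 FPKM, a difference of 2.01 ± 0.23 (adjusted p = 0.00397). *Cald1* had the highest mean of the 10 in *Acta2-tdT* saline mice, at 15.3, 19.5, 26.6 and 25.4 FPKM, and lay at 1.01, 0.836, 7.08 and 1.57 FPKM in *Pdgfra-tdT* mice (2.91 ± 0.52, adjusted p = 0.0257). The high *Pdgfra-tdT* value is that of mouse 3, with the endothelial genes, and it lay below all 4 *Acta2-tdT* mice. *Smtn* was at 1.76, 1.76, 3.48 and 5.01 FPKM against 0.0687, 0.317, 0.363 and 0.378 FPKM, and differed by 1.57 ± 0.29 (adjusted p = 0.0279). The lower *Acta2-tdT* values of *Smtn* and *Lmod1* lie within the range of the receptor genes. The scaled differences of these genes were close to those as deposited, at 3.17 (*Cnn1*), 2.92 (*Tagln*), 2.05 (*Lmod1*), 2.86 (*Cald1*) and 1.59 (*Smtn*).

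The widely expressed relatives separated the lines less clearly. *Cnn2* was at 9.37, 7.41, 11.6 and 22.2 FPKM in *Acta2-tdT* mice and at 1.18, 1.38, 16.4 and 2.19 FPKM in *Pdgfra-tdT* mice. *Cnn3* was at 6.41, 6.3, 12.1 and 11 FPKM against 0.917, 0.924, 16.3 and 1.74 FPKM. *Tagln2* was at 6.42, 7.42, 12.7 and 21.9 FPKM against 1.59, 2.68, 27.5 and 4.05 FPKM. *Pdgfra-tdT* mouse 3 lay within the range of the *Acta2-tdT* mice for *Cnn2* and above all of them for *Cnn3* and *Tagln2*, and the other 3 *Pdgfra-tdT* mice lay below them in all 3 genes. The differences were 1.62 ± 0.71, 1.40 ± 0.72 and 0.96 ± 0.78 (adjusted p = 0.369, 0.45 and 0.644). Without mouse 3 they were 2.31, 2.15 and 1.70 (adjusted p = 0.00668, 0.00428 and 0.0321). *Myocd*, the coactivator, was at 1.27, 1.81, 4.27 and 4 FPKM against 0.442, 0.348, 2.32 and 0.455 FPKM (1.04 ± 0.40, adjusted p = 0.307). It too passed without mouse 3, with 1.35 (adjusted p = 0.0227), although its *Pdgfra-tdT* values and those of *Acta2-tdT* mice 1 and 2 lie within the range of the receptor genes. *Synpo2* was at 1.12 to 1.29 FPKM against 0.714 to 0.967 FPKM, a difference of 0.26 ± 0.14 (adjusted p = 0.454) at levels within that range in all 8 mice.

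The saline calls depended on single mice, and so did the count over all genes (237 in the main fit), whose range is given in the last section. Leaving out *Pdgfra-tdT* mouse 3 raised the number of members called from 5 to 9, and leaving out *Pdgfra-tdT* mouse 1, 2 or 4 gave 3, without *Smtn* and *Cald1*. Leaving out any *Acta2-tdT* mouse gave 0, because *Cnn1*, *Tagln*, *Smtn* and *Lmod1* then had 1 FPKM or more in only 3 mice and were no longer tested, and *Cald1* missed the threshold. With the minimum asked of 3 mice in place of 4, a setting chosen after seeing the data, 3 or 4 members were called as deposited and 4 or 5 after scaling, with *Cald1* not called in any of the 4 fits as deposited (adjusted p = 0.0545 to 0.0937). Counts over all genes for some of these fits, as deposited, stand in the last section without shares.

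The second question was what bleomycin changes in *Acta2-tdT* cells. As deposited, 8 of the 10 genes were higher with bleomycin, but so were 70.4% of all 12523 genes tested, whose median difference was 1.76. After scaling, 4 members were higher (*Cnn2*, *Cnn3*, *Tagln2* and *Smtn*), 1 was lower (*Lmod1*), 4 did not pass (*Cnn1*, *Tagln*, *Cald1* and *Myocd*) and *Synpo2* was too low to be tested. The scaled shares over all 7866 genes were 29.5% higher and 39.7% lower, with a median of -0.05. Without the filter, a setting added after seeing the data, scaled *Smtn* was not called and *Synpo2* was lower.

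*Tagln2* had the largest difference of the 10 on either scale. It was at 608, 444, 770 and 1063 FPKM in bleomycin mice 5 to 8, and at 93.8, 94.3, 86.8 and 113 scaled FPKM against 8.56, 10.2, 12.9 and 18.6 scaled FPKM in saline mice 1 to 4. The groups did not overlap, and the difference was 5.86 ± 0.48 as deposited and 2.90 ± 0.29 scaled (adjusted p = 1.18e-05 and 2.04e-05). Among the 21950 nuclear protein-coding genes of a mouse, *Tagln2* ranked between 318 and 576 with saline and between 36 and 60 with bleomycin. Its relative *Tagln* was at 34.1, 31.1, 37 and 62.7 FPKM with bleomycin, and at 5.27, 6.62, 4.18 and 6.66 scaled FPKM against 6.27, 8.01, 8.16 and 7.9 scaled FPKM with saline. The difference was 2.39 ± 0.37 as deposited (adjusted p = 0.000146) and -0.37 ± 0.21 scaled (adjusted p = 0.144), so its direction depended on the scale. *Tagln* ranked between 561 and 798 with saline and between 1196 and 1872 with bleomycin.

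Of the calponins, *Cnn2* was at 290, 163, 296 and 439 FPKM with bleomycin, and *Cnn3* was at 129, 137, 217 and 321 FPKM. After scaling, *Cnn2* was at 33.4 to 46.6 against 10.2 to 18.8 scaled FPKM and *Cnn3* at 19.9 to 34 against 8.54 to 12.2 scaled FPKM, with no overlap in either gene. The scaled differences were 1.53 ± 0.27 for *Cnn2* and 1.37 ± 0.25 for *Cnn3* (adjusted p = 0.000686 and 0.000932), after 4.48 ± 0.46 and 4.29 ± 0.43 as deposited (adjusted p = 1.87e-05 and 1.77e-05). *Cnn1*, the smooth muscle form, was at 75.3, 118, 122 and 251 FPKM with bleomycin (3.20 ± 0.54, adjusted p = 0.000263). After scaling it was at 11.6, 25.2, 13.7 and 26.6 against 8.85, 11.3, 20.4 and 21.6 scaled FPKM, groups that overlapped, and differed by 0.30 ± 0.39 (adjusted p = 0.503).

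Among the remaining actin-associated genes, *Smtn* was at 32.6, 18.8, 52.9 and 55.7 FPKM with bleomycin (3.32 ± 0.44, adjusted p = 5.83e-05). Its scaled difference of 0.60 ± 0.22 passed (adjusted p = 0.037), but the groups overlapped and the call was lost without saline mouse 1, 2 or 3 or bleomycin mouse 5, 7 or 8 (adjusted p = 0.0505 to 0.0989). *Cald1* was at 203, 146, 279 and 313 FPKM with bleomycin (3.35 ± 0.40, adjusted p = 3.28e-05). After scaling it lay at 31.1 to 33.2 against 20.3 to 26.9 scaled FPKM, groups that did not overlap, with a difference of 0.40 ± 0.22 that did not pass (adjusted p = 0.136; exact permutation p = 0.0286). *Lmod1* went the other way. It was at 5.8, 5.91, 2.72 and 5.98 FPKM with bleomycin, which overlapped the saline mice (0.38 ± 0.32, adjusted p = 0.279), and at 0.895, 1.26, 0.307 and 0.634 scaled FPKM against 3.88, 3.23, 5.22 and 3.62, with no overlap and a difference of -1.51 ± 0.22 (adjusted p = 0.000187). *Synpo2* was at 1.49, 2.27, 1.56 and 1.7 FPKM with bleomycin (0.31 ± 0.18, adjusted p = 0.124), and its scaled values of 0.175 to 0.482 lay below the 0.975 to 1.78 of the saline mice. With saline, *Synpo2* in every mouse and *Lmod1* in mouse 2 (2.34 FPKM) lay below the receptor genes' 95th percentile (2.53 to 2.89 FPKM). In bleomycin mice that percentile was 0.514 to 2.07 FPKM, and scaling lowers it further. Without the filter, 33.6% of 42342 genes were lower after scaling.

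*Myocd*, which acts with SRF at contractile genes, was at 6.07, 8.53, 19.3 and 27 FPKM with bleomycin, all above the 1.27 to 4.27 FPKM with saline (1.96 ± 0.49, adjusted p = 0.00341). After scaling its groups overlapped, at 0.937 to 2.87 against 1.69 to 4.32 scaled FPKM, and the difference was -0.43 ± 0.28 (adjusted p = 0.198). The medians of all genes beside these values were 1.76 and -0.05. *Myocd* in saline mice 1 and 2 (1.27 and 1.81 FPKM) lay within the range of the receptor genes. For *Acta2*, the gene whose promoter labeled these cells, the difference was 3.13 ± 0.42 as deposited and 0.14 ± 0.28 scaled (adjusted p = 6.31e-05 and 0.67), close to the values of *Cnn1*.

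**Figure D2:**
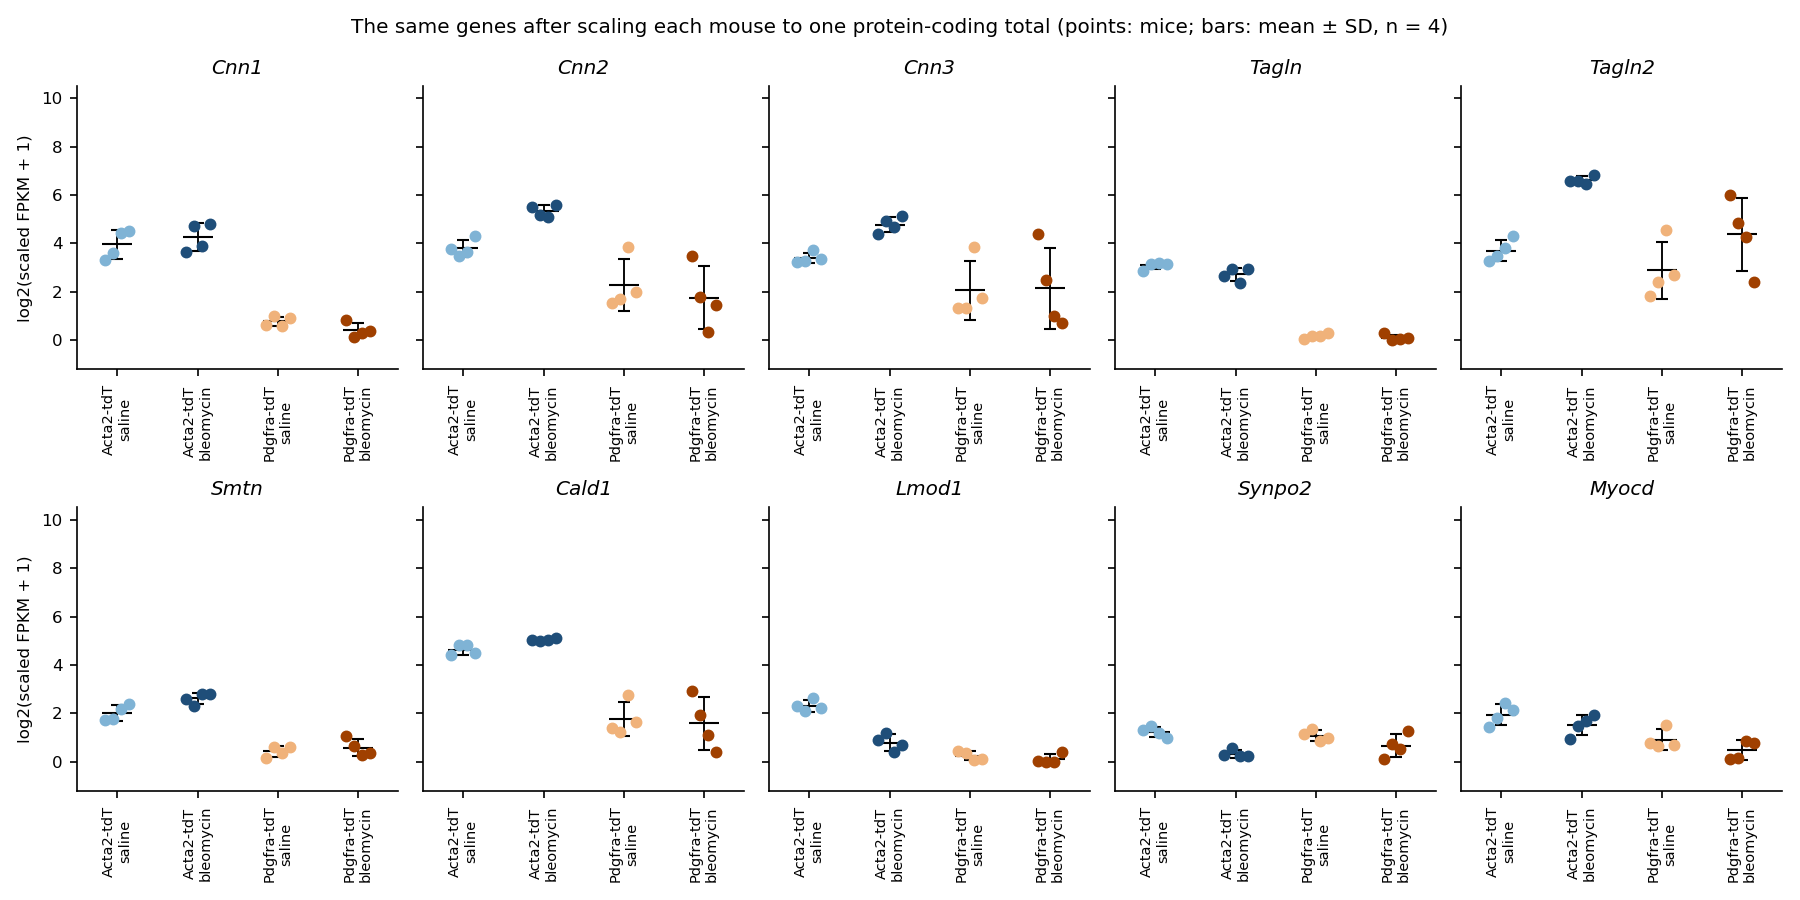
The same genes as log2(scaled FPKM + 1), on the vertical axis, in the 4 groups along the horizontal axis (points: mice; bars: mean ± SD, n = 4). In *Acta2-tdT* mice *Cnn2*, *Cnn3* and *Tagln2* stay above saline with bleomycin, *Cnn1* and *Tagln* overlap saline, and *Lmod1* lies below it.

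**Figure D3:**
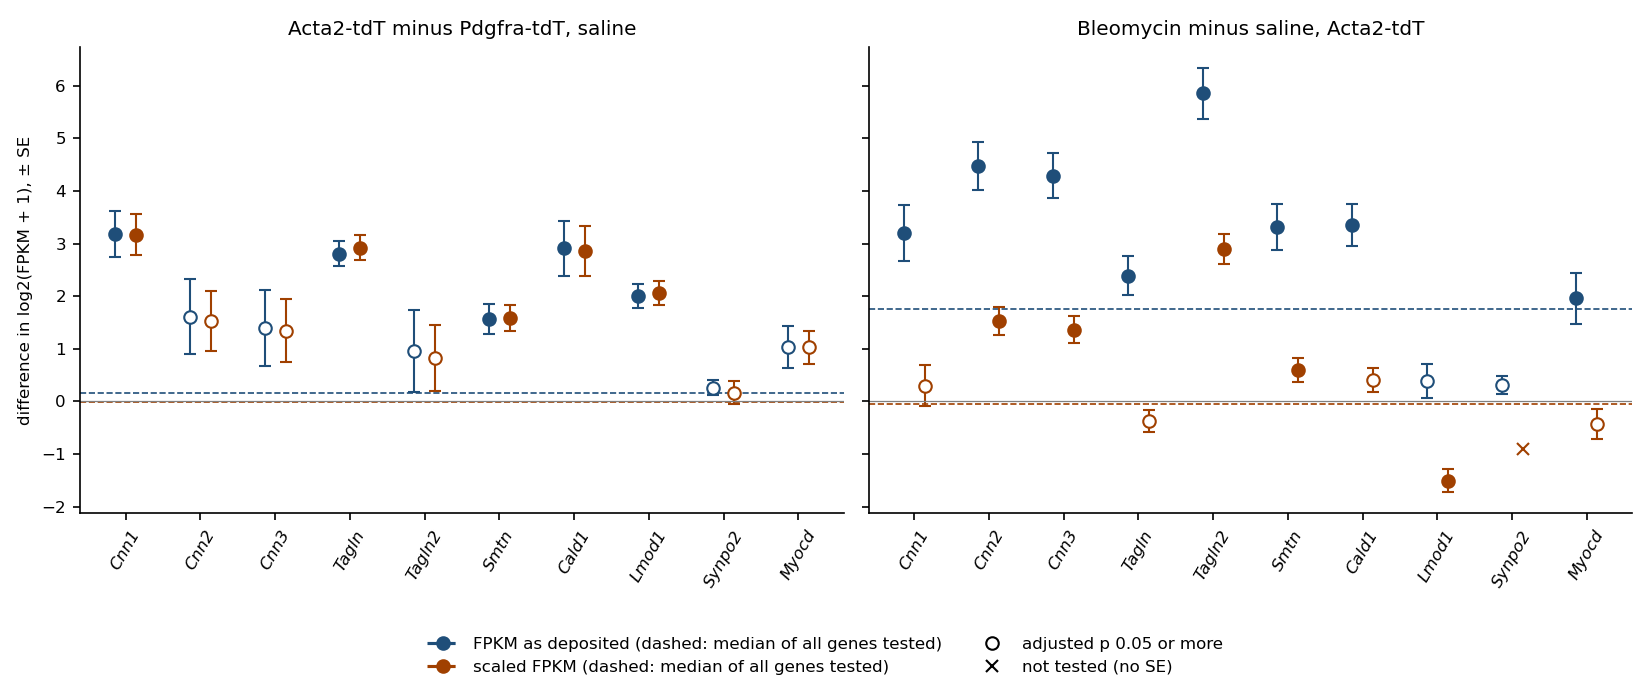
Difference in log2(FPKM + 1), ± SE, for each gene between the lines with saline (left) and between bleomycin and saline in *Acta2-tdT* mice (right), as deposited (blue) and scaled (brown); filled points have an adjusted p under 0.05, crosses were not tested and dashed lines are the median of all genes tested. Scaling leaves the left panel almost as it was, while in the right panel it lowers every gene and puts *Tagln*, *Lmod1*, *Synpo2* and *Myocd* below 0.

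Markers of other cell types differed as well, for some of them in a direction that depended on the scale. With bleomycin, the 6 fibroblast markers summed to 219 to 333 scaled FPKM in *Acta2-tdT* mice against 25.4 to 32.9 with saline, while the leukocyte markers summed to 664 to 1224 scaled FPKM against 1166 to 1631, and the endothelial markers to 3.02 to 5.13 scaled FPKM against 7.41 to 11.3. All 6 fibroblast markers were at 1 FPKM or more in every *Acta2-tdT* bleomycin mouse, and 5 were in every saline mouse. *Col1a1* was at 58.4 to 106 scaled FPKM against 1.89 to 2.74 scaled FPKM. Cardiac muscle markers, of interest because *Myocd* is also made in heart, summed to 45.5 to 103 scaled FPKM in saline mice but to 7.26 to 26 scaled FPKM in bleomycin mice. As deposited, the endothelial sums were higher with bleomycin, at 24.2 to 28.5 against 7.12 to 13.3 FPKM. The leukocyte sums were so too, at 5756 to 9367 against 845 to 1612 FPKM. The cardiac sums then overlapped, at 47 to 140 against 34.1 to 122 FPKM. The part of these cell types in the rise of *Tagln2*, *Cnn2* and *Cnn3* was not tested.

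FPKM is per length, so related genes were also set against each other within a mouse. The ratios are of (FPKM + 1), and they depend on the added 1 and on the level of the mouse where a gene is low. The log2 ratio of (FPKM + 1) of *Tagln* to *Tagln2* was -1.15 to -0.31 in *Acta2-tdT* saline mice and -4.34 to -3.79 in *Acta2-tdT* bleomycin mice. As listed, *Tagln2* thus lay above *Tagln* in every mouse of the line, and further above it with bleomycin. With the antisense gene *RP23-228B2.5*, which overlaps *Tagln*, added to it, the ratio to *Tagln2* was 1.35 to 1.92 in saline mice and -1.87 to -1.29 in bleomycin mice, so that with saline the order of the transgelins turned. The ratio of *Cnn1* to *Cnn2* lay between -0.44 and 0.75 in saline mice and between -1.93 and -0.46 in bleomycin mice. That of *Cnn1* to *Cnn3* lay between 0.04 and 1.14 and between -0.83 and -0.21. In these 3 ratios the saline and bleomycin mice of the line did not overlap, although for *Cnn1* to *Cnn2* they nearly touched. *Cnn2* to *Cnn3* overlapped, at -0.06 to 0.95 with saline and 0.25 to 1.17 with bleomycin. In *Pdgfra-tdT* mice *Tagln* was at 0 to 0.645 FPKM, so that its ratio to *Tagln2* mostly restates the level of *Tagln2* and says nothing of *Tagln*. These ratios are descriptions and were not tested.

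**Figure D4:**
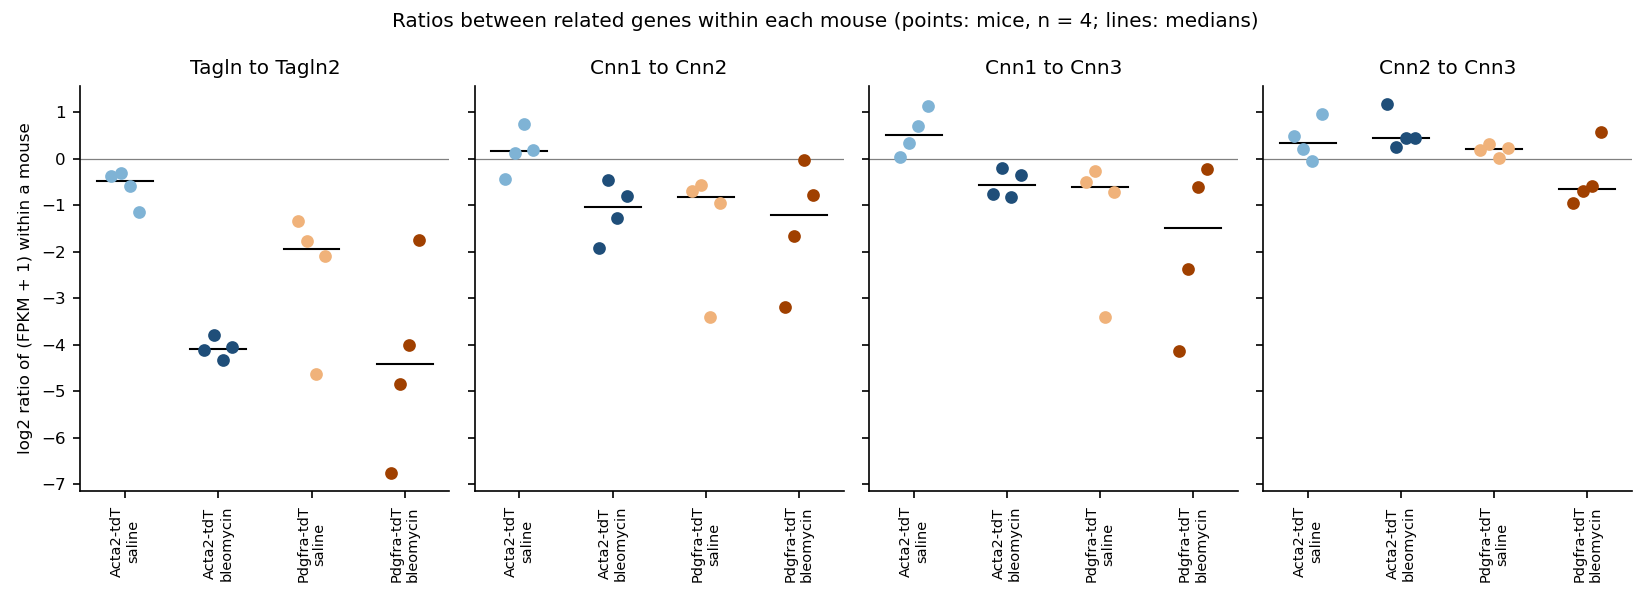
Log2 ratio of (FPKM + 1) between related genes within each mouse, on the vertical axis, by group (points: mice, n = 4; lines: medians). In *Acta2-tdT* mice the ratio of *Tagln* to *Tagln2* lies at -1.15 to -0.31 with saline and at -4.34 to -3.79 with bleomycin, while *Cnn2* to *Cnn3* overlaps. In *Pdgfra-tdT* mice *Tagln* is under 1 FPKM and the ratio follows *Tagln2*.

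The level of *Tagln* has a limit of its own. The antisense gene *RP23-228B2.5* (*Gm48529* in GENCODE), at chr9:45930112-45933738 on the plus strand, covers 1241 of the 1988 exonic bases of *Tagln*, or 62.4%. SmartSeq2 libraries do not keep the strand, so fragments of these genes cannot be told apart in the shared bases. *RP23-228B2.5* was listed at 19.2, 25.1, 34.7 and 48.1 FPKM in *Acta2-tdT* saline mice and at 180, 150, 172 and 272 FPKM in *Acta2-tdT* bleomycin mice, each time above *Tagln*, and at 0 to 1.26 FPKM in *Pdgfra-tdT* mice. The log2 ratio of (FPKM + 1) of the antisense gene to *Tagln* lay between 1.82 and 2.25 in saline mice and between 2.1 and 2.37 in bleomycin mice of the *Acta2-tdT* line. With the values of the genes added together, a choice made after seeing the data, the difference between the lines with saline was 4.59 (adjusted p = 0.00105), the bleomycin difference in *Acta2-tdT* mice was 2.60 (adjusted p = 0.000177), and its scaled form was -0.35 (adjusted p = 0.27). The calls for *Tagln* in these comparisons were thus the same with and without the antisense gene, whereas its level was higher with it. The sum was 23.9, 30.9, 42.8 and 57.4 FPKM in *Acta2-tdT* saline mice 1 to 4, above *Tagln2* in each, and 214, 181, 210 and 335 FPKM in *Acta2-tdT* bleomycin mice 5 to 8, below *Tagln2* in each.

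The third question was whether bleomycin changes the genes in *Pdgfra-tdT* cells. By limma none of the 10 passed on either scale, against 0.124% of 7275 genes (9 genes, and 312 at an unadjusted p under 0.05) as deposited and 0.109% of 9168 genes (10 genes, and 417 unadjusted) scaled. Only *Cnn2*, *Cnn3*, *Tagln2* and *Cald1* were high enough to be tested. With sample quality weights 548 genes were called as deposited and again none of these, the nearest being *Tagln2* (2.34, adjusted p = 0.0573). *Tagln2* was at 176, 27.8, 15.7 and 2.48 FPKM in bleomycin mice 5 to 8, where mouse 8 lay among the saline mice (1.59, 2.68, 27.5 and 4.05 FPKM) and mouse 6 lay level with saline mouse 3. The difference was 1.94 ± 1.25 as deposited and 1.49 ± 0.99 scaled (adjusted p = 0.791 and 0.799), and leaving out 1 mouse moved it from 0.96 without bleomycin mouse 5 to 2.86 without bleomycin mouse 8, with 2.68 without saline mouse 3 (scaled 0.94 to 2.14), and none of these passed. The SE is large enough that neither 0 nor the scaled difference of the *Acta2-tdT* line, 2.90, lies far from this estimate. *Cnn2* was at 28.3, 2.49, 0.233 and 1.01 FPKM (-0.04 ± 1.08, adjusted p = 0.99, and scaled -0.51 ± 0.76, adjusted p = 0.806). *Cnn3* was at 55.9, 4.7, 0.849 and 0.362 FPKM (0.56 ± 1.26, adjusted p = 0.869, and scaled 0.08 ± 0.88, adjusted p = 0.974). *Cald1* was at 18.7, 2.9, 0.989 and 0.191 FPKM (0.31 ± 0.90, adjusted p = 0.899, and scaled -0.17 ± 0.62, adjusted p = 0.915). In all 4 genes mouse 5 was the highest, and the range of the rest overlapped that of the saline mice. Mouse 8 lay below every saline mouse for *Cnn2*, *Cnn3* and *Cald1*, and mouse 7 did for *Cnn2* and *Cnn3*.

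In the same mice *Cnn1* was at 2.22, 0.103, 0.202 and 0.173 FPKM, *Tagln* was at 0.645, 0, 0.0396 and 0.0319 FPKM and *Smtn* was at 3.11, 0.591, 0.175 and 0.162 FPKM, so that mouse 5 was again the highest. *Lmod1* was listed at 0 in mice 6 and 7 and at 0.0524 and 0.193 FPKM in mice 5 and 8. *Myocd* was at 0.126 to 0.719 FPKM and *Synpo2* at 0.21 to 0.813 FPKM. All these values except those of mouse 5 for *Cnn1* and *Smtn* lay below 1 FPKM, within the range of the receptor genes, where a difference was not detectable.

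The *Pdgfra-tdT* mice with the highest *Cnn2*, *Cnn3* and *Cald1*, saline mouse 3 and bleomycin mouse 5, are those with the endothelial genes and with the highest fibroblast marker and protein-coding sums. *Pecam1* was at 39.1 and 65.9 FPKM in them and at 0.252 to 5.78 FPKM in the other 6 mice, and *Cldn5* was at 246 and 741 FPKM against 2.43 to 77.7 FPKM. Bleomycin mouse 6, next by endothelial sum (106 FPKM), was also next by *Cnn3* and *Cald1*. Leukocyte marker sums were 3651, 2089, 1540 and 425 FPKM in bleomycin mice 5 to 8, in the order of *Tagln2*. With saline they were lowest in mouse 3 (55.5 FPKM). The part of endothelial cells, of fibroblasts, of leukocytes and of the protein-coding sums in these values was not tested. Without mice 3 and 5, a choice made after seeing the data, the differences were -0.31 (*Cnn2*), 0.17 (*Cnn3*), 1.71 (*Tagln2*) and -0.01 (*Cald1*). Of these only *Cnn2* and *Tagln2* could still be tested, and neither passed (adjusted p = 0.693 and 0.441).

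**Figure D5:**
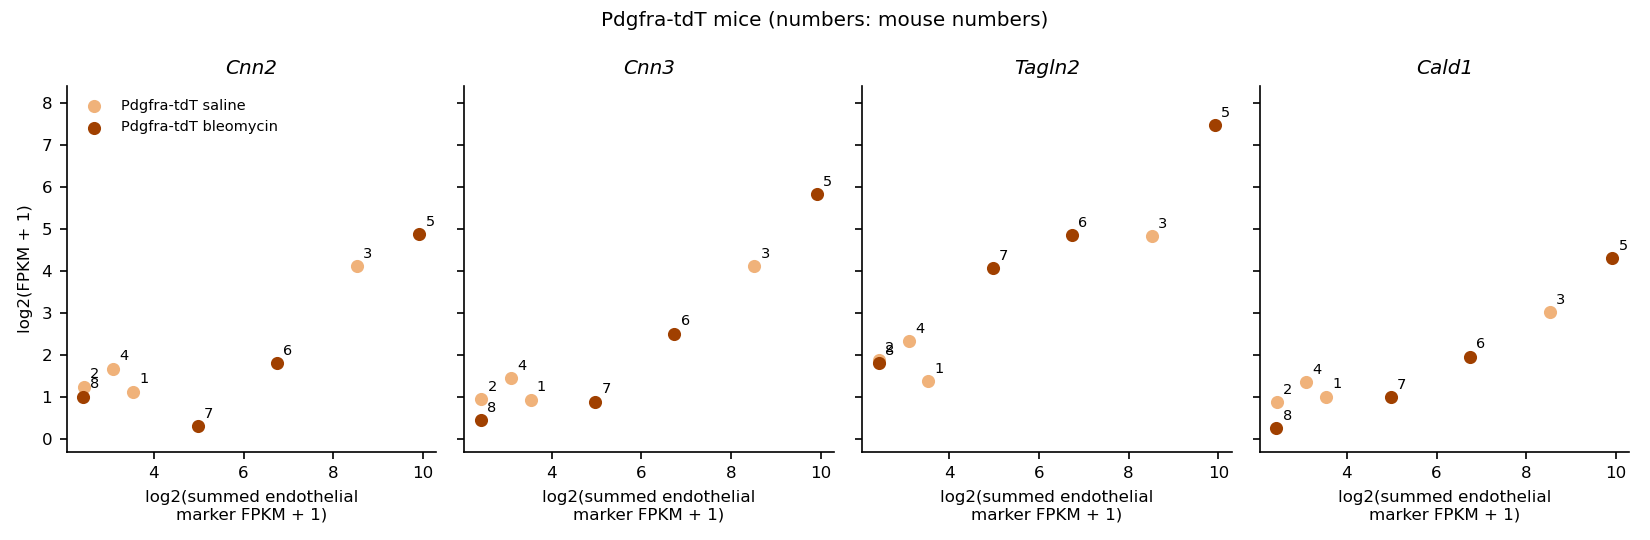
Log2(FPKM + 1) of 4 genes (vertical axes) against log2 of the summed FPKM + 1 of 7 endothelial markers (horizontal axes) in the 8 *Pdgfra-tdT* mice, labeled by mouse number. Saline mouse 3 and bleomycin mouse 5, whose marker sums were 366 and 967 FPKM, lie at the right of each panel and are the highest for *Cnn2*, *Cnn3* and *Cald1*, while for *Tagln2* bleomycin mouse 6 lies level with mouse 3.

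Set against each other with bleomycin, the lines differed in all 10 genes as deposited, each higher in *Acta2-tdT* cells with no overlap, against 71% of 11995 genes. The largest differences were those of *Cnn1* (6.44 ± 0.65, adjusted p = 4.96e-05), *Cnn2* (6.14 ± 0.99, adjusted p = 0.00035) and *Cald1* (5.95 ± 0.91, adjusted p = 0.000262). After scaling, 7 of the 7 genes tested passed, against 24.8% of 5891 genes. Among these, the groups overlapped for *Cnn3* alone (exact permutation p = 0.0571). *Tagln*, *Lmod1*, *Synpo2* and *Myocd* as deposited, and *Cnn1* and *Tagln* scaled, reached the minimum of 1 in no *Pdgfra-tdT* bleomycin mouse and were tested through the *Acta2-tdT* mice alone. Without the filter all 10 were called as deposited and 5 scaled (*Cnn1*, *Cnn2*, *Tagln*, *Smtn* and *Cald1*), against 19.4% and 1.35% of 40888 genes. *Cnn1* (3.84 ± 0.40), *Cnn2* (3.57 ± 0.65), *Cald1* (3.43 ± 0.57), *Cnn3* (2.63 ± 0.76), *Tagln* (2.61 ± 0.25) and *Smtn* (2.04 ± 0.30) stood above the scaled median of 0.56, and *Tagln2* (2.24 ± 0.78, adjusted p = 0.0411) was nearest to the threshold. The call of *Tagln2* was lost without any 1 *Acta2-tdT* mouse and without *Pdgfra-tdT* mouse 6 or 7 (adjusted p = 0.0647 to 0.115), and held without *Pdgfra-tdT* mouse 5 (2.78) or 8 (1.58). *Lmod1*, *Synpo2* and *Myocd* were too low after scaling to be tested, and *Synpo2* then lay lower in *Acta2-tdT* mice by its mean (-0.33), with overlapping groups. Leaving out any 1 *Acta2-tdT* mouse gave 6 as deposited, because *Tagln*, *Lmod1*, *Synpo2* and *Myocd* then reached 1 FPKM in only 3 mice and were not tested, and 3 or 4 scaled, where *Cnn1* and *Tagln* were not tested for the same reason. With the minimum in 3 mice the counts were 10 as deposited and 5 to 7 scaled. Scaled *Cnn3* was lost without *Acta2-tdT* mouse 7 or 8 at that minimum (adjusted p = 0.0531 and 0.061) and without *Pdgfra-tdT* mouse 7 (adjusted p = 0.0612). Leaving out 1 *Pdgfra-tdT* mouse gave 10 as deposited and 5 to 7 scaled.

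Whether bleomycin acted differently in the lines was tested as the interaction of line and agent over all 16 mice. As deposited, 8 members passed with a larger difference in *Acta2-tdT* cells, against 36.6% of 16605 genes: *Cnn2* by 4.52 ± 1.26, *Tagln2* by 3.92 ± 1.42, *Cnn3* by 3.74 ± 1.41, *Cnn1* by 3.26 ± 0.73, *Cald1* by 3.04 ± 1.06, *Smtn* by 2.88 ± 0.64, and *Tagln* and *Myocd* by 2.33 each, with SE of 0.44 and 0.64 (adjusted p = 0.00125 to 0.0472). *Cnn1*, *Tagln*, *Smtn* and *Myocd* were too low in *Pdgfra-tdT* mice for a bleomycin test there, so for them the interaction sets the *Acta2-tdT* difference against low values. Without the filter 5 passed (*Cnn1*, *Cnn2*, *Tagln*, *Smtn* and *Myocd*), against 11.4% of 44499 genes, and scaled 0. With a pseudocount of 0.1, 4 passed (*Cnn1*, *Cnn2*, *Tagln* and *Myocd*), and scaled 0. As deposited, the count over all genes, 6605 in the main fit, also fell with this pseudocount. It changed too when 1 mouse was left out, as given in the last section. *Lmod1* (0.47 ± 0.36) and *Synpo2* (0.60 ± 0.25) did not pass. The count of members was 5 without *Acta2-tdT* saline mouse 1 or 2, *Acta2-tdT* bleomycin mouse 5, 7 or 8, *Pdgfra-tdT* saline mouse 3, or *Pdgfra-tdT* bleomycin mouse 6, 7 or 8, each time with *Cnn3*, *Tagln2* and *Cald1* lost. After scaling, *Lmod1* alone passed of the 10, with -1.37 ± 0.30 (adjusted p = 0.0268), against 2.16% of 13960 genes in either direction. Its *Pdgfra-tdT* values were 0.0441 to 0.376 scaled FPKM with saline and 0 to 0.333 scaled FPKM with bleomycin, near the bottom of the scale, and it was tested through the *Acta2-tdT* mice alone. Without the filter it did not pass (adjusted p = 0.0576). Scaled *Tagln2* (1.41 ± 1.02), *Cnn2* (2.04 ± 0.89) and *Cnn3* (1.29 ± 1.03) did not pass (adjusted p = 0.444, 0.216 and 0.488), and without *Pdgfra-tdT* mice 3 and 5 *Cnn2* did (2.09, adjusted p = 0.0161). The call of *Lmod1* was lost without *Acta2-tdT* saline mouse 1 or 3, *Acta2-tdT* bleomycin mouse 5, 7 or 8, *Pdgfra-tdT* saline mouse 4 or *Pdgfra-tdT* bleomycin mouse 6.

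Other contractile genes give the setting for the members. The smooth muscle list held 24 genes, among them actins, myosin subunits and tropomyosins. With saline 10 of the 16 that could be tested were higher in *Acta2-tdT* cells, including *Myl9*, the regulatory light chain (5.79 ± 0.43), *Tpm2*, a tropomyosin (5.52 ± 0.41), and *Myh11*, the smooth muscle myosin heavy chain (2.97 ± 0.26), and none was lower, against 2.72% of all genes higher. Of the 10, *Myh11*, *Flna* and *Ppp1r14a* reached 1 FPKM in no *Pdgfra-tdT* saline mouse and were tested through the *Acta2-tdT* mice alone. Without the filter 6 of the 24 were higher, against 0.126% of 43598 genes. With bleomycin in *Acta2-tdT* mice 18 of 20 were higher as deposited, against 70.4% of all genes, and of the 18 *Actn1* and *Vcl* reached 1 FPKM in no saline mouse. After scaling 6 of 18 were higher and 6 were lower, against 29.5% and 39.7% of all genes. Of the 6 higher, *Vcl* again reached 1 in no saline mouse and was tested through the bleomycin mice alone. Without the filter 17 of the 24 were higher as deposited, against 23.8% of 42342 genes, and after scaling 6 were higher and 9 lower, against 6.34% and 33.6% of them. *Des* (1.88 ± 0.25) and *Tpm1* (1.41 ± 0.24) were higher along with *Cnn2* and *Cnn3*, whereas *Ppp1r14a*, an inhibitor of myosin phosphatase (-2.13 ± 0.25), *Myh11* (-1.84 ± 0.21) and *Myl9* (-1.42 ± 0.30) were lower along with *Lmod1* (adjusted p = 4.16e-05 to 0.00215). *Flna* (0.15 ± 0.22) and *Myl6* (-0.14 ± 0.26) did not pass, as *Cnn1* and *Tagln* did not. The median over the list was -0.01 scaled, beside -0.05 for all genes. Between the lines with bleomycin 20 of 20 were higher in *Acta2-tdT* cells as deposited and 16 of 18 after scaling, against 71% and 24.8% of all genes. Of these *Myh11*, *Nexn* and *Ppp1r12b* as deposited, and *Myh11*, *Des*, *Vcl*, *Nexn*, *Ppp1r12a* and *Ppp1r14a* scaled, reached 1 in no *Pdgfra-tdT* bleomycin mouse and were tested through the *Acta2-tdT* mice alone. Without the filter 21 and 14 of the 24 were higher, against 19.4% and 1.35% of 40888 genes. In *Pdgfra-tdT* mice 0 of 5 (as deposited) and 0 of 6 (scaled) passed the bleomycin test.

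The regulator list held 14 factors known to act with or against myocardin. With saline 4 were tested and none passed, *Mef2c* at 0.98 being the largest difference. With bleomycin in *Acta2-tdT* mice 11 of 12 were higher as deposited, among them *Srf* (1.55 ± 0.19), the myocardin-related factors *Mkl1* (1.61 ± 0.21) and *Mkl2* (2.12 ± 0.39), and *Tead1* (1.76), against 70.4% of all genes. Of the 11, *Srf*, *Mkl1*, *Elk1*, *Tead1*, *Smad3* and *Rbpj* reached 1 FPKM in no saline mouse and were tested through the bleomycin mice alone. Without the filter 10 of the 14 were higher as deposited, against 23.8% of 42342 genes, and after scaling 1 was higher and 3 lower, against 6.34% and 33.6%. The median of the tested regulators was 1.58, below the 1.76 of all genes. After scaling only 4 could be tested, of which *Klf4*, a repressor of contractile genes, was lower (-0.86 ± 0.10, adjusted p = 4.56e-05), as were 39.7% of all genes, and *Mkl2* (-0.16 ± 0.21) did not pass. With bleomycin, 10 of 11 regulators were higher in *Acta2-tdT* than in *Pdgfra-tdT* cells as deposited, against 71% of all genes, and 1 of 3 was lower after scaling, against 16% of all genes. Of the 10, *Srf*, *Mkl1*, *Elk1*, *Gata6*, *Tead1*, *Smad3* and *Heyl* reached 1 FPKM in no *Pdgfra-tdT* bleomycin mouse. Without the filter 10 of the 14 were higher as deposited, against 19.4% of 40888 genes. In *Pdgfra-tdT* mice 0 of 2 passed on either scale.

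Of 16595 other genes, the 3 whose scaled log2 levels followed *Tagln* most closely over the 16 mice, by the root mean square difference after centering each gene on its mean, were *Lmcd1* (0.33), *Rasl11a* (0.36) and *Flna* (0.38), beside an SD of 1.44 for *Tagln* itself. For *Tagln2* they were *Tmed3* (0.30), *P4hb* (0.32) and *Vim* (0.36), beside an SD of 1.68. The mice share their group differences, so this closeness also counts how well the group levels match.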

How the data were processed

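RNA was measured in tdTomato-positive lung cells of 16 mice, 4 in each group of line and agent. Per the labels and the study's methods, the authors made SmartSeq2 libraries, aligned reads to mm10 with TopHat2 2.1.1 and Bowtie2 and deposited FPKM values per Ensembl gene from Cufflinks 2.1.1. FPKM is already divided by transcript length and by mapped fragments, so counts cannot be tested and depth is unknown. The Ensembl release and the treatment of multiply mapped reads are not given in the sources used here.

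FPKM was summed per gene identifier (49534 rows, 49452 genes), and 15 genes without a valid Cufflinks status were left out. Comparisons used limma 3.58.1 in R 4.3.3 with a mean-variance trend on log2(FPKM + 1) of the mice compared, or of all 16 for the interaction. A gene was tested if it reached an FPKM of 1 in 4 mice. P-values were adjusted over all genes tested by the Benjamini-Hochberg method (threshold 0.05). Exact permutation tests were two-sided over 70 labellings. Each fit was repeated after scaling every mouse to the same FPKM sum over 21950 nuclear protein-coding genes. Log2 differences with a pseudocount of 1 understate those of low genes. The scripts (Python 3.11.15, pandas 2.3.3) were tested on simulated data.

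All 10 genes are named in every comparison, other genes only from the smooth muscle, regulator and marker lists, and for *Tagln* and *Tagln2* the 3 nearest genes. These genes and lists were chosen with earlier results of these data known. The study's methods name no pairing of mice with the same number, so none was used in the main fits. Alternatives were another pseudocount, no filter, sample quality weights, all 16 mice in 1 fit, the replicate block and leaving out each mouse.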

Additional observations from a re-analysis of the deposited data

Results flagged for a closer look

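With 4 mice, a mouse was marked when its gap to the nearest other mouse, as a share of the range of its group, exceeded Dixon's 95% critical value on the log2(FPKM + 1) scale, which chance alone gives in about 1 in 20 groups. The low *Cnn1* of *Pdgfra-tdT* saline mouse 1 (0.343 FPKM) had a gap of 0.835. Among the mice with high endothelial genes, *Pdgfra-tdT* bleomycin mouse 5 had gaps of 0.92 for *Cnn1* (2.22 FPKM) and 0.922 for *Tagln* (0.645 FPKM), and *Pdgfra-tdT* saline mouse 3 had gaps of 0.838 for *Cnn3* (16.3 FPKM) and 0.915 for *Myocd* (2.32 FPKM). In *Acta2-tdT* bleomycin mouse 7 the low *Lmod1* (2.72 FPKM) had a gap of 0.958.

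The effect of bleomycin differed between the lines by the interaction test of limma. It was larger in *Acta2-tdT* cells as deposited for *Cnn1* (3.26), *Cnn2* (4.52), *Cnn3* (3.74), *Tagln* (2.33), *Tagln2* (3.92), *Smtn* (2.88), *Cald1* (3.04) and *Myocd* (2.33), all on the log2(FPKM + 1) scale. These 8 stand beside 36.6% of all genes, and none of them passed after scaling (adjusted p = 0.216 to 0.998), where *Tagln* turned to -0.31. For *Cnn1*, *Tagln*, *Smtn* and *Myocd* the *Pdgfra-tdT* values were too low for a test of bleomycin in that line. With a pseudocount of 0.1, 4 of the 8 passed (*Cnn1*, *Cnn2*, *Tagln* and *Myocd*), and the count over all genes fell too. After scaling it was lower in *Acta2-tdT* cells for *Lmod1* (-1.37), beside 2.16% of all genes in either direction. *Lmod1* was under 1 scaled FPKM in every *Pdgfra-tdT* mouse, so it was tested through the *Acta2-tdT* mice alone, and its call was lost without the filter (adjusted p = 0.0576), with a pseudocount of 0.1 (adjusted p = 0.235) and without any 1 of 7 single mice (adjusted p = 0.0504 to 0.101).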

How the results depend on the processing

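The members' calls in *Acta2-tdT* cells with bleomycin depended on the scale. After scaling, 5440 genes and 5 members were called against 10848 and 8, and with a pseudocount of 0.1 as well 5266 and 5. Directions turned for *Tagln* (-0.37 and -0.43 with the smaller pseudocount), *Lmod1* (-1.51 and -2.34), *Synpo2* (-0.91 and -2.06) and *Myocd* (-0.43 and -0.61). Leaving out 1 mouse gave 6973 to 10143 genes, and scaled 2954 to 4754, the lowest 4 without a saline mouse (2957, 2954, 3134 and 3325 without mice 1 to 4). These turns came with scaling, and the source of the higher protein-coding sums with bleomycin was not tested.

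Between the lines with saline (237 genes, 5 members), no filter gave 59 and 2 (scaled 3 members), sample quality weights 2715 and 9, and all 16 mice in 1 fit 126 and 3. Leaving out 1 mouse gave 14 to 2141 genes (scaled 28 to 3120) and 0 to 9 members, also 0 to 9 scaled, and with the minimum in 3 mice 122, 141 and 150 genes without mouse 3, 4 and 1, with 3 members without mouse 3 or 4. With the replicate block the counts were 36 genes and 1 member (*Tagln*). Mice sharing a number correlated from -0.086 to 0.157 with saline and from -0.307 to 0.071 with bleomycin. These correlations cannot show whether a number marks a shared batch, and the study's methods name no block. The block left 4 members scaled with saline, 10 with bleomycin as deposited and 6 scaled, where *Tagln2* was lost (adjusted p = 0.0705).

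Between the lines with bleomycin (9553 genes), scaling gave 2405 genes, 2054 with a pseudocount of 0.1, and turned *Synpo2* (-0.33 and -0.73). Leaving out 1 mouse gave 6111 to 9952 genes (scaled 1265 to 3097), 6 to 10 members and 3 to 7 scaled.

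In *Pdgfra-tdT* cells (9 genes), no filter gave 2, sample quality weights 548, all 16 mice in 1 fit 15, no mice 3 and 5 gave 0, and leaving out 1 mouse 0 to 69 (scaled 0 to 40). *Cald1* turned after scaling (-0.17), with a pseudocount of 0.1 as well (-0.42) and without mice 3 and 5 (-0.012). *Cnn3* turned with scaling and a pseudocount of 0.1 (-0.052) and scaled without mice 3 and 5 (-0.073). Leaving out 1 mouse gave -1.004 to 0.65 for *Cnn2*, -0.58 to 1.31 for *Cnn3*, -0.50 to 0.85 for *Cald1* and 0.96 to 2.86 for *Tagln2*, and for the first 3 scaled -1.08 to 0.016, -0.67 to 0.67 and -0.61 to 0.23.

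For the interaction (6605 genes, 8 members), scaling gave 302 and 1, a pseudocount of 0.1 gave 3463 and 4, both together 1358 and 0, no filter 5 members (scaled 0) and sample quality weights 10668 genes. Leaving out 1 mouse gave 3739 to 9166 genes (scaled 65 to 2251), 5 to 8 members and 0 to 2 scaled, and without mice 3 and 5 there were 2 scaled. Scaling turned *Tagln* (-0.31, and -0.014 with a pseudocount of 0.1), *Lmod1* (-1.37 and -1.53) and *Synpo2* (-0.49 and -1.01). Scaled *Myocd* was -0.33 without mice 3 and 5 and -0.20 to 0.19 leaving out 1 mouse. The causes of the turns were not tested. Of all alternatives for single members, 734 as deposited and 563 scaled kept direction and call, 119 and 68 lost the call or the test, 26 and 17 turned, 9 and 6 gained the call, and 7 and 1 untested values moved by more than the spread. Without counts, the error of a single low FPKM value rests on the deposited Cufflinks confidence bounds, which the tests did not use. The lower bound of *Tagln* was 0 in 2 *Pdgfra-tdT* saline and 3 *Pdgfra-tdT* bleomycin mice. That of *Lmod1* was 0 in 1 and 3 mice of these groups.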
